A study of Rattus norvegicus with 9 samples.

Results

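Injured spinal cord from rats given Modified Erxian Decoction (T_Spinal) was compared with spinal cord of rats in which only the lamina had been opened (Sham). All genes with a mean FPKM (fragments counted per gene, scaled to transcript length and library size) of at least 1 over these 6 libraries entered the comparison, which gave 14715 of the 32623 genes in the deposited table. Both groups were 8-week-old female Wistar rats of 200 to 230 g, with 3 libraries each. The T_Spinal rats had a spinal cord injury followed by 3 mL of the decoction, a Chinese herbal mixture, by daily gavage. The Sham rats had neither injury nor treatment, so injury, gavage and decoction differ together between these groups and cannot be told apart in this comparison. A group with the same injury given distilled water by gavage (C_Spinal, 3 libraries) is set beside them where stated. The labels used here give no time after injury, injury method or level, and do not tie each library to an animal of its own. The spread behind every p-value is that between libraries, and it may be partly or wholly technical.

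Injury to the spinal cord kills neurons and oligodendrocytes near the lesion and strips axons of myelin. Microglia and blood-derived macrophages clear the debris through phagocytosis, lysosomal breakdown and export of cholesterol. Astrocytes become reactive around the lesion, and fibroblasts of the meninges and vessels lay down a collagen-rich scar. The PI3K-AKT pathway, which the study's title names, relays growth factor signals to cell survival and protein synthesis.

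Depth was similar in both groups, at 57.0 to 69.8 M counts per library in Sham and 61.8 to 69.4 M for the T_Spinal libraries (1 M is 1e+06 counts). Across the tested genes, Spearman correlations were 0.9857 to 0.9869 within Sham, 0.9825 to 0.9842 within T_Spinal and 0.805 to 0.8103 between them. These are correlations over genes, which are not independent replicates. The tissue label matched its markers: Sham libraries held high levels of Mbp (myelin), Snap25 (neurons) and Gfap (astrocytes), given below.

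The difference from Sham covered most of the transcriptome. By edgeR's quasi-likelihood test with Benjamini-Hochberg adjustment (called at an adjusted p below 0.05), 5276 genes were higher in T_Spinal (35.9% of those tested) and 5155 were lower (35.0%). A difference of at least 2-fold was called for 2179 higher (14.8%) and 1907 lower genes (13.0%). The larger differences lay on the higher side: 429 called genes were above Sham by at least 3 on the log2 scale and 127 were below it by as much. At 4 or more the counts were 189 higher and 12 lower. For 11140 genes (75.7%) the FPKM of the groups did not overlap. The median log2 fold change of all tested genes was 0.01, and the median absolute change was 0.51 against 0.61 for C_Spinal over Sham. These shares of called genes are the background for every list below. A gene averaging below 1 FPKM in either group entered only through the other, so its direction was largely fixed by the minimum.

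**Figure D1:**
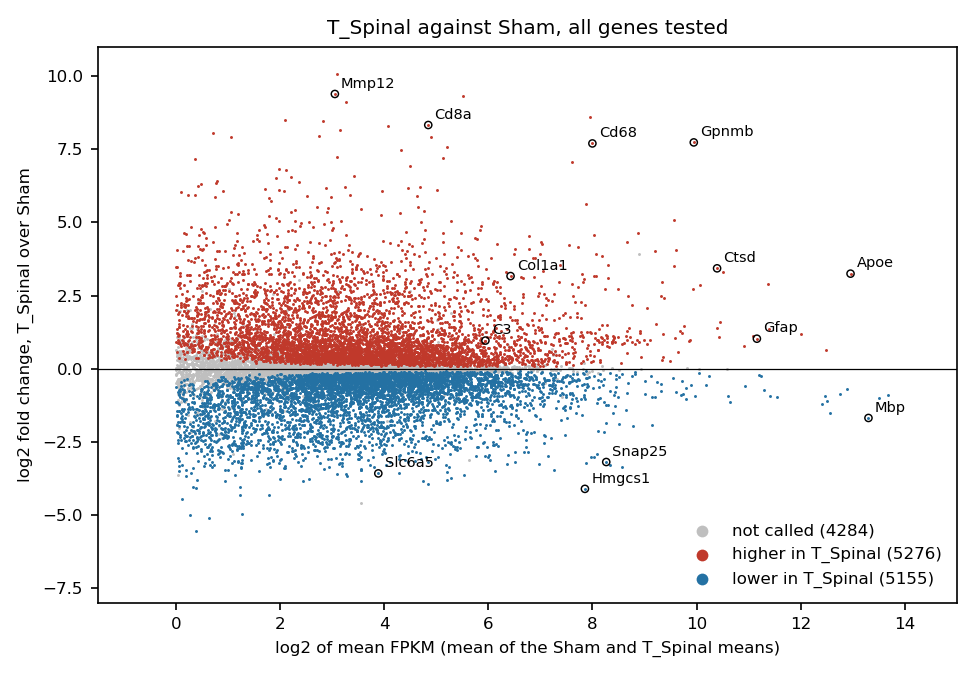
Log2 fold change of T_Spinal over Sham against log2 mean FPKM for the tested genes, red where called higher, blue where called lower and grey otherwise. The 22 genes without counts in a whole group are left out. Mmp12, Cd8a, Cd68 and Gpnmb lie at the top, and Hmgcs1, Slc6a5 and Snap25 near the bottom.

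A few abundant transcripts accounted for much of the shift in composition. Mbp, the myelin basic protein of oligodendrocytes, went from 5.29% ± 0.0958 (SD, n = 3) of all counts in Sham to 1.78% ± 0.0197 in T_Spinal. Apoe, the lipid carrier of astrocytes and macrophages, went the other way, from 0.227% ± 0.00850 to 2.34% ± 0.107. Gfap, Ctsb and Ctsd gained 0.651, 0.486 and 0.475 percentage points. Mitochondrially encoded transcripts together held 8.81% ± 0.673 of the counts in Sham and 5.08% ± 0.0894 in T_Spinal. These genes were singled out after their values were seen.

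Among genes that carry a symbol, whose groups did not overlap and whose higher group averaged 5 FPKM or more, the 8 largest rises were almost all genes of myeloid or lymphoid cells. They were Cd8b and Cd8a (the chains of CD8), Mmp12 (macrophage elastase), Lilrb4 and Cd300c2 (receptors of myeloid cells), Fcrl2 (an Fc receptor-like protein), Mmp8 (neutrophil collagenase) and Sost (sclerostin, a secreted Wnt inhibitor of bone). Fcrl2 had FPKM of 1.95, 0.668 and 0.808 in Sham and 487, 500.3 and 496 in T_Spinal (log2 fold change 8.62, SE 0.315, adjusted p = 6.867e-08). Cd8a stood at 0.0001, 0.240 and 0.250 in Sham, where 0.0001 marks a library without counts, and at 58.9, 55.6 and 57.6 in T_Spinal (log2 8.33, SE 0.474). Lilrb4 was at 0.305, 0.0194 and 0.0364 against 91.5, 89.9 and 92.6 (log2 9.34, SE 0.393). That no T_Spinal library overlapped Sham for these genes follows from the rule that picked them. All of the 8 except Fcrl2 averaged below 1 FPKM in Sham, so their being higher was largely fixed by the minimum. The Sham side rests on few reads: Cd8b had 4 counts in all 3 Sham libraries together, Sost 4, Cd300c2 7, Mmp12 8 and Mmp8 18. Their log2 fold changes of 10.09, 9.11, 8.49, 9.39 and 8.47 are therefore imprecise. Lilrb4, Cd300c2 and Fcrl2 belong to families of similar genes, between which reads may have been split.

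The 8 largest falls under the same rule were mostly neuronal. Hmgcs1, which makes HMG-CoA for cholesterol, was at 449, 434 and 425 FPKM in Sham and at 27.2, 26.7 and 28.1 in T_Spinal (log2 -4.11, SE 0.0411, adjusted p = 2.174e-10). Syt2, a calcium sensor of fast synapses, was at 51.1, 55.1 and 54.9 against 3.98, 3.73 and 3.71 (log2 -3.93, SE 0.0493). Hapln4, a link protein of perineuronal nets, was at 48.3, 51.9 and 49.6 against 4.22, 3.44 and 3.60 (log2 -3.85, SE 0.0790). Sptssb, a small subunit of serine palmitoyltransferase (log2 -4.31), Scrt1, a neuronal transcription factor (-3.85), and Chrna4, a nicotinic receptor subunit (-3.82), fell too. The others were Rph3a, a vesicle-binding Rab3 effector (-3.81), and Zdhhc22, a palmitoyltransferase (-3.77). Sptssb, Chrna4 and Zdhhc22 averaged below 1 FPKM in T_Spinal, so their being lower was largely fixed by the minimum.

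Most tested members fell in each of the neuronal lists. Of the 24 tested genes of inhibitory transmission, 23 were lower and none was higher, with a median log2 fold change of -2.25. Of 30 glutamate receptors and scaffolds, 28 were lower (median -1.90), and of 26 genes of synaptic vesicle release all 26 were (median -2.41). All 20 genes of the neuronal cytoskeleton and neuronal RNA binding (median -2.15), all 12 cholinergic and motor neuron genes (median -2.20) and all 29 sodium, potassium and calcium channels (median -2.05) were lower too. Among 18 spinal neuropeptides and their receptors, 17 were lower (median -1.67). Members that were not called included Gabrb1 (log2 -0.39, adjusted p = 0.0968), Homer1 (0.05, 0.711) and Vip (0.15, 0.54). In tissue RNA, fewer cells of a type and less RNA per cell cannot be told apart, here and in the lists that follow.

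Snap25, a membrane fusion protein of synapses (chromosome 3, 129599353 to 129788400 in the deposited table), had FPKM of 569, 551 and 529 in Sham and 64.0, 66.0 and 65.7 in T_Spinal. The log2 fold change was -3.19 (SE 0.0412, adjusted p = 4.485e-10), and C_Spinal averaged 31.5. Rbfox3, which encodes the nuclear marker NeuN, stood at 25.7, 26.6 and 29.7 against 4.07, 3.81 and 3.98 (log2 -2.90, SE 0.0801). The T_Spinal libraries lay close together for both genes, and far below Sham.

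Glycine is the main fast inhibitory transmitter of the cord. Slc6a5, the neuronal glycine transporter, was at 25.9, 27.3 and 28.1 FPKM in Sham and 2.42, 2.53 and 2.41 in T_Spinal (log2 -3.58, SE 0.0434). Glra1, the adult glycine receptor subunit, was at 25.0, 24.7 and 26.2 against 3.19, 2.10 and 2.70 (log2 -3.36, SE 0.144). The GABA-A receptor subunit Gabra5 had a log2 fold change of -3.12. On the excitatory side, Slc17a7, a vesicular glutamate transporter, led with -3.81 (SE 0.302). The NMDA receptor subunit Grin2a followed at -3.23, the metabotropic receptor Grm4 at -3.01 and Grin1, the obligatory NMDA receptor subunit, at -2.88. Slc17a7, Grin2a and Grm4 averaged below 1 FPKM in T_Spinal, so their being lower was largely fixed by the minimum. Grin1 fell from 35.8, 39.5 and 38.9 FPKM to 5.55, 5.75 and 5.45.

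In the release machinery, Cplx1 (complexin, a clamp of vesicle fusion) was at 271, 286 and 281 FPKM in Sham and 28.7, 25.9 and 27.8 in T_Spinal (log2 -3.46, SE 0.0454). Rims1, an active zone scaffold, had a log2 fold change of -3.16. The neurofilament subunits, structural proteins of large axons, fell in near step: Nefm by 3.37, Nefl by 3.30 and Nefh by 3.22 on the log2 scale. Nefl was at 594, 580 and 574 FPKM in Sham and 64.0, 64.0 and 64.2 in T_Spinal. Chat, the acetylcholine-making enzyme of motor neurons, was at 10.2, 10.1 and 10.7 against 2.07, 2.79 and 1.91 (log2 -2.30, SE 0.144). Ache, which breaks acetylcholine down, fell by 2.61 and the muscarinic receptor Chrm2 by 3.21. The channels that fell included Kcnc1 (-3.28), a potassium channel of fast-firing neurons, Scn1a (-3.59), a sodium channel, and Ano3 (-3.41). Oprl1, the nociceptin receptor, Tacr3, the neurokinin B receptor, the peptide Nmu and the peptide Cck had log2 fold changes of -2.61, -2.58, -2.43 and -2.26. Calca, the CGRP gene of sensory neurons and motor neurons, changed less, from 20.8, 22.7 and 23.8 FPKM to 16.8, 17.2 and 18.4 (log2 -0.47, SE 0.0738). Rims1, Chrm2, Ano3, Tacr3 and Nmu averaged below 1 FPKM in T_Spinal, so their being lower was largely fixed by the minimum.

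Perineuronal nets are coats of chondroitin proteoglycan around neurons. Their link proteins Hapln1 (log2 -5.11, SE 0.436) and Hapln4 and their core protein Acan (-2.92, SE 0.0914) fell, as did Sema4d, a semaphorin of oligodendrocytes that hinders axon growth (-2.31, SE 0.0368). Hapln1 and Acan averaged below 1 FPKM in T_Spinal, which largely fixed their direction. Across the 26 chondroitin proteoglycans and growth inhibitors 18 were lower and 4 were higher (median -0.53). The 4 higher members were Vcan (0.87), Ncan (0.42), Cspg4 (0.32) and Chst15 (0.27), and Ptprz1, Chst11, Bcan and Sema3a were not called (-0.06, -0.15, -0.07 and 0.21).

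Myelin genes fell less than neuronal genes on the log2 scale: 22 of 23 were lower (median -1.11), and only Cryab, a small heat shock protein, was higher (0.28). Mbp was at 14769, 15115 and 15370 FPKM in Sham and 5144, 5036 and 5067 in T_Spinal (log2 -1.68, SE 0.0285). The largest falls of the list were those of Fa2h (-2.25), Ugt8 (-2.12) and Gal3st1 (-1.70), enzymes that make myelin lipids, and of the structural gene Mobp (-1.95). Of 19 regulators and stage markers of the oligodendrocyte lineage, 11 were lower and 5 were higher (median -0.32). Enpp6, a marker of newly formed oligodendrocytes, fell by 1.09 and Bcas1 by 0.90 on the log2 scale. Pdgfra, the growth factor receptor of oligodendrocyte precursors, which fibroblasts also carry, rose from 12.7, 13.1 and 13.1 FPKM to 27.5, 28.0 and 28.8 (log2 1.00, SE 0.0308). The other higher members were Vcan, Tcf7l2, Cspg4 and Itpr2, and Ptprz1, Sox6 and Neu4 were not called.

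All 24 enzymes and regulators of cholesterol synthesis were lower, 23 of them by at least 2-fold, with a median log2 fold change of -2.65 against 0.01 over all tested genes. Next to Hmgcs1, the falls included Idi1 (-3.17) and Acat2 (-3.13), enzymes along the same chain. Idi1 was at 46.0, 41.4 and 42.4 FPKM in Sham and at 5.19, 5.24 and 5.21 in T_Spinal. Genes that export, carry or store cholesterol moved the other way: 18 of 20 were higher (median 2.26). Abca1, the pump that loads cholesterol onto lipoproteins, was at 5.94, 5.89 and 5.91 FPKM in Sham and 95.4, 97.8 and 101 in T_Spinal (log2 3.94, SE 0.0354). Apoe was at 1351, 1404 and 1465 against 15174, 14388 and 13877 (log2 3.25, SE 0.0476). Apoc4 had a log2 fold change of 3.72, and Fabp4, a fatty acid carrier of macrophages and fat cells, of 7.49 (SE 0.512). Fabp4 averaged below 1 FPKM in Sham, so its direction was largely fixed by the minimum. The 2 lower members were Acsl1, which activates fatty acids (-1.07), and Npc1, which moves cholesterol out of lysosomes (-0.21). Npc1 was no longer called under several alternatives.

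**Figure D2:**
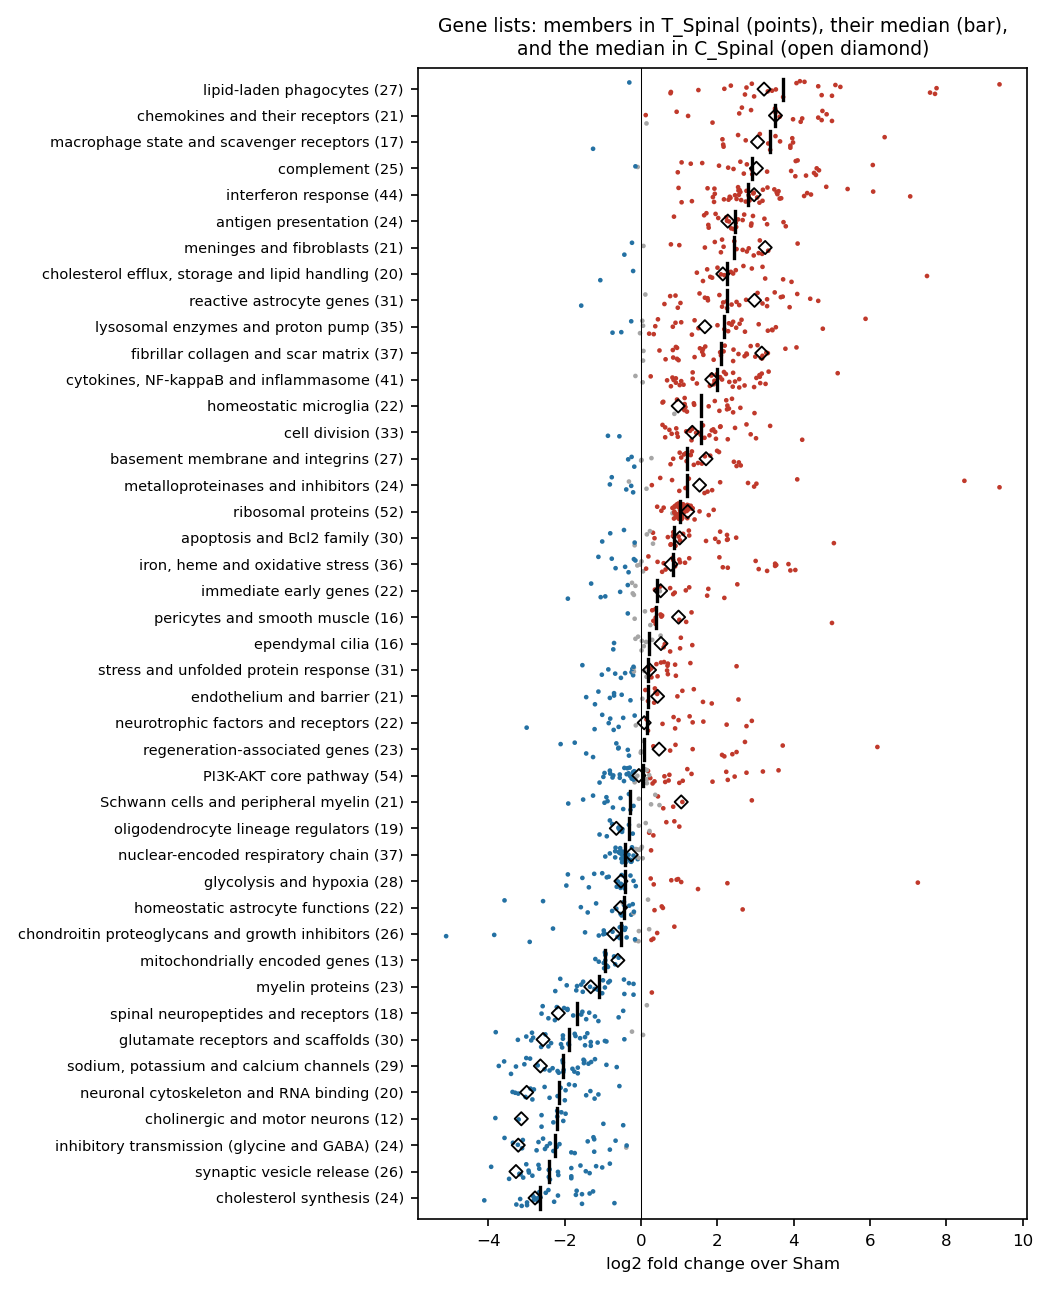
Log2 fold change over Sham of the members of the 43 gene lists with at least 10 tested members (points, red where called higher in T_Spinal, blue where called lower, grey otherwise), with the T_Spinal median as a bar and the C_Spinal median as an open diamond. The 5 member genes without counts in Sham are left out as points. Neuronal lists and cholesterol synthesis lie to the left and phagocyte, immune and scar lists to the right, and for the neuronal lists the bar lies nearer to 0 than the diamond.

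Genes of phagocytes rose most. Of 27 genes of lipid-laden phagocytes, the macrophages and microglia that have taken up myelin debris, 26 were higher (median 3.72). The remaining member, Syngr1, had a log2 fold change of -0.31 and was not called under several alternatives. Gpnmb, a membrane glycoprotein of such cells (chromosome 4, 78694447 to 78715683), was at 10.3, 7.59 and 7.53 FPKM in Sham and 1957, 2003 and 1930.0 in T_Spinal (log2 7.74, SE 0.148). Cd68, a lysosomal membrane protein of phagocytes, was at 2.80, 2.50 and 1.35 against 511, 531 and 485 (log2 7.70, SE 0.209). Spp1 (osteopontin) was at 84.1, 81.1 and 79.7 against 1452, 1486 and 1506 (log2 4.07, SE 0.0396). Of 17 genes of macrophage state and scavenger uptake, 16 were higher (median 3.38). A further 8 members, among them Tnf, Il1b, Il6, Il10 and Nos2, were below the FPKM minimum. Of these 8, 2 had no counts in either group, and without a minimum 1 was called higher and 0 lower. Msr1, a scavenger receptor, rose by 6.38 (SE 0.110) on the log2 scale, the inhibitory Fc receptor Fcgr2b by 3.98 and the mannose receptor Mrc1 by 3.96. Vsig4, a complement receptor of resident macrophages, had no counts in Sham and was at least 124.5-fold higher, taking 3 counts per library as the floor. Vsig4, Msr1 and Mrc1 averaged below 1 FPKM in Sham, so their being higher was largely fixed by the minimum. Arg1, arginase of alternatively activated macrophages, fell (log2 -1.26).

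Lysosomal genes followed: 29 of 35 were higher, 3 were lower and 3 were not called (median 2.18). Ctsk, a collagen-degrading cathepsin, was at 3.29, 3.42 and 4.69 FPKM in Sham and 112, 110.8 and 109.8 in T_Spinal (log2 4.76, SE 0.123). Tfec, a transcription factor related to the lysosomal regulator TFEB, had a log2 fold change of 5.88 (SE 0.343) from a low Sham level. Atp6v0d2, a proton pump subunit of macrophages and osteoclasts, had no counts in Sham and was at least 80.7-fold higher. Tfec and Atp6v0d2 averaged below 1 FPKM in Sham, so their being higher was largely fixed by the minimum. The lower members were the pump subunits Atp6v1a (-0.75) and Atp6v1b2 (-0.52) and the channel Mcoln1 (-0.26). Mitf, Gla and Atp6v0d1 were not called (0.03, 0.05 and -0.03).

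Genes typical of resting microglia also rose: 21 of 22 were higher (median 1.58), and Adora3 was not called (log2 0.87, adjusted p = 0.473). Cx3cr1, which binds fractalkine, stood at 20.3, 23.6 and 21.8 FPKM in Sham and 96.8, 98.5 and 98.3 in T_Spinal (log2 2.05, SE 0.0555). P2ry12, the ATP receptor of resting microglia, was at 21.2, 23.6 and 18.0 against 52.5, 47.7 and 49.8 (log2 1.14, SE 0.0991). Csf1r, the receptor that microglia and macrophages need to survive, was at 40.6, 42.1 and 40.8 against 238, 238 and 233 (log2 2.41, SE 0.0317). Aif1, which encodes Iba1, rose by 2.97 (SE 0.0906), Itgam (CD11b) by 2.60 and Tgfbr1 by 2.38. How far microglia or blood-derived macrophages account for the rises in this list was not tested. No T_Spinal library overlapped Sham for these genes, as was so for 75.7% of all tested genes.

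Complement and antigen presentation were higher almost throughout. Of 25 complement genes 23 were higher (median 2.90), the membrane inhibitor Cd59 was lower (-0.15, not called under several alternatives) and Cd55 was not called (-0.09). C1qc, a chain of the starter protein C1q, was at 19.7, 19.7 and 18.3 FPKM in Sham and 510, 520.5 and 469 in T_Spinal (log2 4.58, SE 0.0593). C3, the central component, rose less, from 39.3, 40.4 and 39.2 to 83.0, 85.2 and 82.3 (log2 0.96, SE 0.0305). Cfd (factor D) rose by 6.08, C4b by 4.66 (SE 0.602) and C6 by 4.60 on the log2 scale. For Cfd and C6, which averaged below 1 FPKM in Sham, the direction was largely fixed by the minimum. All 24 genes of antigen presentation were higher (median 2.45). Cd74, the invariant chain of MHC class II, was at 34.4, 35.0 and 39.6 against 137, 141 and 126 (log2 1.78, SE 0.0650), and Ifi30, Psmb8 and the MHC genes RT1-A2 and RT1-DMb had log2 fold changes of 3.79, 3.30, 3.73 and 3.23. The RT1 genes are near-identical copies, so counts may be divided among them.

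Interferon response genes are switched on through a short promoter element bound by STAT and IRF factors. All 44 tested members were higher, 43 of them by at least 2-fold (median 2.79). Ifitm1, which blocks virus entry, was at 3.02, 2.96 and 2.01 FPKM in Sham and 399, 391 and 377 in T_Spinal (log2 7.05, SE 0.117). Oas2, an RNA sensor, rose by 6.08 (SE 0.373), Slfn4 by 5.41 and Zbp1 by 4.85. Oas2 and Zbp1 averaged below 1 FPKM in Sham, so their being higher was largely fixed by the minimum. Ifit1 (chromosome 1, 252944103 to 252946170) was at 2.77, 2.25 and 2.52 against 21.7, 22.9 and 22.9 (log2 3.05, SE 0.0956). For the members that rose together, RefSeq promoter windows of build GRCr8 (250 bases before to 50 after the start site) were searched for the response element core GAAANNGAA on both strands. Of 31 members matched by symbol, 20 held it (64.5%), against 9.71% of all 33469 windows. A member counted if any of its windows held the letters, while the share over all windows counts each window. Of all windows 6012 have the same gene symbol as another, so these shares are of unlike units, here and below. The 200 bases before the start site are printed for the 4 called members with the largest change and a match there, with the matched letters in capitals, to show where the element lies. Irf7 (chr1:205800024-205800223, minus strand) has a match that starts 68 bases before the start site, Ifitm2 (chr1:205482349-205482548, minus strand) 33 bases, Ifi44l (chr2:243328523-243328722, plus strand) 90 and 59 bases, and Oas1a (chr12:41330266-41330465, plus strand) overlapping ones 41 and 35 bases.
Irf7: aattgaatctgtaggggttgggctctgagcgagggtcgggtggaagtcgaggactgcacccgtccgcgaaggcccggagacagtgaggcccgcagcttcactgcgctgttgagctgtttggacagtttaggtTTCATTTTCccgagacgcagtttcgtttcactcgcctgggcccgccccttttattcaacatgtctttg
Ifitm2: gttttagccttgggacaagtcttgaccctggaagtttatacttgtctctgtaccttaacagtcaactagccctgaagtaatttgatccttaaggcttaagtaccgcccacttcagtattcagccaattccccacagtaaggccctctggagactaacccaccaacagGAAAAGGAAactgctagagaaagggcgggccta
Ifi44l: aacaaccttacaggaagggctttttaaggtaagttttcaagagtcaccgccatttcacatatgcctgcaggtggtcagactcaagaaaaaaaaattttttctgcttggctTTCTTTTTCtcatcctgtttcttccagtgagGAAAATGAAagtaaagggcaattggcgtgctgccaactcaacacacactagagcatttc
Oas1a: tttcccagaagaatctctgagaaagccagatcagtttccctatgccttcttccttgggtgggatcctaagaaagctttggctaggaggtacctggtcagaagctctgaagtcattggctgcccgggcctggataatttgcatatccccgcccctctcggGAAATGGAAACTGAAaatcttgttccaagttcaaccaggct
Their log2 fold changes were 4.45, 4.27, 3.63 and 3.55. Irf7, an interferon-amplifying transcription factor, averaged 4.45 FPKM in Sham and 105.5 in T_Spinal. Such a match is a description of the letters and shows no binding.

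The lysosomal genes were searched in the same way for TCACGTGA, the core of the CLEAR element bound by TFEB and its relatives. It was held by 4 of 25 members matched by symbol (16.0%), against 0.78% of all windows. They were Ctsd (log2 3.43) and Lamp1 (0.90), which were higher, Mcoln1 (-0.26), which was lower, and Atp6v0d1 (-0.03), which was not called. The windows of the 2 higher members show it near the start site, 11 bases before it in Ctsd (chr1:206968822-206969021, minus strand) and 66 and 39 bases before it in Lamp1 (chr16:83075064-83075263, minus strand).
Ctsd: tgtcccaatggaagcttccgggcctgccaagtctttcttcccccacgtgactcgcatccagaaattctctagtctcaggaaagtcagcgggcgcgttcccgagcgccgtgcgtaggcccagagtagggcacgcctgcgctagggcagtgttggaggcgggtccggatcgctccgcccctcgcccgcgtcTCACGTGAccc
Lamp1: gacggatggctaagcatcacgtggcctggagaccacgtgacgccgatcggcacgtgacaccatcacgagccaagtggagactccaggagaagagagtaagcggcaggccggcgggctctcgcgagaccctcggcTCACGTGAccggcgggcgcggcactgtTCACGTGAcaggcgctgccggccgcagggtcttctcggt
For cholesterol synthesis, the sterol element core TCACNCCAC was held by 0 of 17 members matched, against 1.12% of all windows. This says only that these letters are not in these stretches.

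Most tested genes of the chemokine and cytokine lists were higher. Of 21 chemokines and their receptors 20 were higher (median 3.52), and the scavenging receptor Ackr3 was not called (0.14). Ccl3, a monocyte attractant, rose by 5.003 on the log2 scale, Cxcl1, a neutrophil attractant, by 4.86 (SE 0.664) and Cxcl13, a B cell attractant, by 4.75. Cxcr1 had no counts in Sham and was at least 134.4-fold higher. Ccl3, Cxcl1, Cxcl13 and Cxcr1 averaged below 1 FPKM in Sham and reached the minimum only through T_Spinal. Their being higher was therefore largely fixed by the minimum. Without a minimum, 6 of the 14 chemokine list members below it were called higher and 0 lower. Of 41 cytokine, NF-kappaB and inflammasome genes 39 were higher (median 1.98), while Tgfb3 (-0.15) and Il34 (0.04) were not called. Leading members were the RNA sensors Tlr8 (5.15) and Tlr7 (3.16), the TNF receptor Tnfrsf1b (3.34) and Il1a (3.26). Tlr8 and Il1a likewise averaged below 1 FPKM in Sham. The cytokines Tnf, Il1b, Il6, Il10, Csf2 and Csf3 were among 9 members of this list below the minimum. Of these 9, 3 had no counts in either group, and without a minimum 2 were called higher and 0 lower. Of 36 iron, heme and oxidative stress genes 25 were higher and 7 lower (median 0.83). The phagocyte oxidase subunits Cybb, Cyba and Ncf1 rose by 4.04, 3.91 and 3.86. Hmox1, which breaks down heme, was at 7.68, 9.08 and 8.37 FPKM in Sham and 105, 103.5 and 101 in T_Spinal (log2 3.51, SE 0.0613).

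Markers of blood-borne leukocytes were mostly low. Of 20 neutrophil genes in the table, only Mmp8, Csf3r and Lcn2 reached the FPKM minimum, and all 3 were higher, the last 2 by 2.46 and 2.24 on the log2 scale. Of 31 lymphocyte genes listed, 6 reached it. Jchain was not called, and the other members were higher. Mmp8, Cd8a, Cd8b, Lck and Il2rg averaged below 1 FPKM in Sham and reached the minimum only through T_Spinal, so their being higher was largely fixed by the minimum and the counts of these small lists support nothing. Cd4 (chromosome 4, 157383052 to 157408176) was at 7.20, 8.44 and 7.75 FPKM in Sham and 76.9, 77.6 and 76.4 in T_Spinal (log2 3.19, SE 0.0605). CD4 is carried by rat macrophages and microglia as well as T cells. The CD3 chains Cd3d, Cd3e and Cd3g of the T cell receptor complex and the B cell gene Ms4a1 were below the minimum. Without a minimum, 14 of the 25 lymphocyte genes below it were called higher and 0 lower, and of 17 such neutrophil genes 4 were higher and 1 lower.

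**Figure D3:**
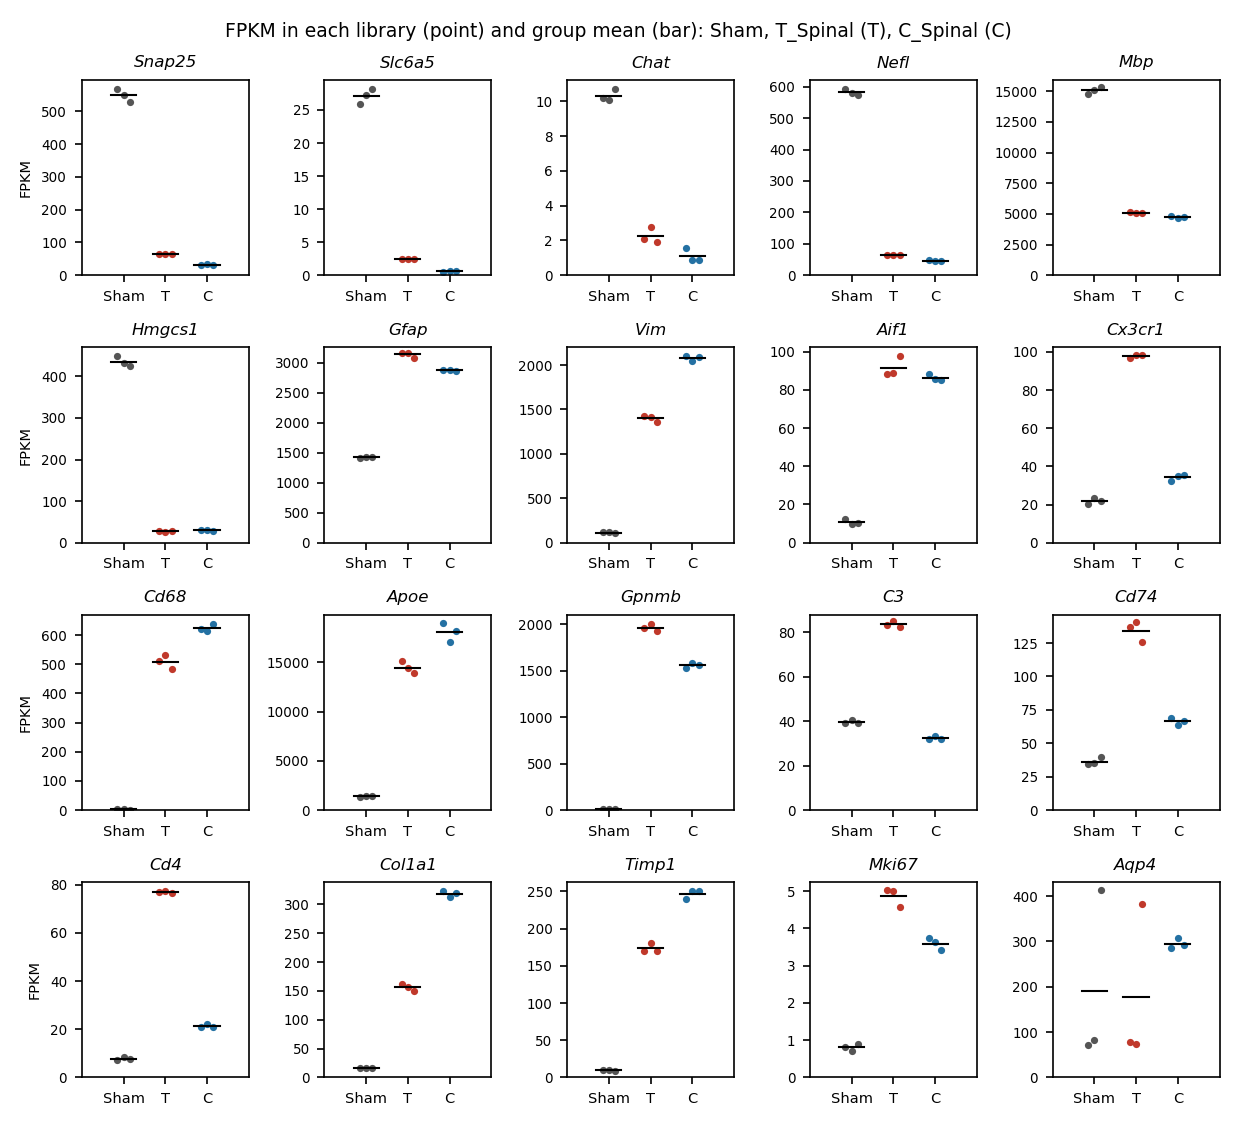
FPKM of 20 genes in each library (points) with group means (bars), for Sham, T_Spinal (T) and C_Spinal (C). Sham and T_Spinal do not overlap for any of them except Aqp4, against 75.7% without overlap over all tested genes. For Aqp4, 1 library of each group stands apart from the other 2.

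Reactive astrocyte genes rose: 29 of 31 were higher (median 2.25), the catenin Ctnna2, which neurons also express, was lower (-1.57) and the intermediate filament gene Synm was not called (0.11). Gfap, the astrocyte intermediate filament, was at 1421, 1431 and 1423 FPKM in Sham and 3172, 3165 and 3089 in T_Spinal (log2 1.03, SE 0.0289). Vim, which fibroblasts and phagocytes also express, was at 115, 115 and 113 against 1428, 1410.0 and 1359 (log2 3.50, SE 0.0361). Lgals3, shared with phagocytes, rose by 4.64, Ptx3 by 4.43 and Cd109 by 3.89. The direction of Ptx3 and Cd109, below 1 FPKM on average in Sham, was largely fixed by the minimum. Of 22 genes of astrocyte housekeeping 15 were lower and 4 higher (median -0.45). The amino acid transporter Slc7a10 fell by 3.58, the GABA transporter Slc6a11 by 2.57 and the potassium channel Kcnj10 by 1.58, from 128, 141 and 141 FPKM to 49.9, 49.4 and 48.6. The higher members were the connexins Gjb2 (2.66) and Gja1 (0.35), the glutamine synthetase gene Glul (0.57) and Mlc1 (0.54), and Sox9 and Slc1a3 were not called (0.18 and -0.49). Aqp4, the water channel of astrocyte endfeet, was at 72.4, 82.9 and 414 FPKM in Sham and 77.7, 74.0 and 383 in T_Spinal (log2 -0.20, SE 0.830, adjusted p = 0.841). In both groups replicate 3 was far above the other libraries, so its level here is uncertain.

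Genes of the fibrous scar rose: 35 of 37 were higher (median 2.09), with Ccn1 and Ogn not called (0.05 and 0.06). Col1a1 (chromosome 10, 82745801 to 82762789) was at 15.7, 15.9 and 16.6 FPKM in Sham and 161, 157 and 150.4 in T_Spinal (log2 3.17, SE 0.0405). Col3a1 was at 23.2, 22.7 and 21.0 against 214, 216 and 206 (log2 3.14, SE 0.0509). Postn (periostin) rose by 3.78 on the log2 scale and the collagen cross-linkers Lox and Loxl1 by 3.32 and 3.28. Of 27 basement membrane and integrin genes 21 were higher (median 1.21), led by Col18a1 (2.61), Itga4 (2.56), Col15a1 (2.50) and Itga5 (2.42). Itgav, Itgb8 and Agrn were lower (-0.34, -0.25 and -0.18), and Itga7, Itga8 and Itgb3 were not called. Of 24 metalloproteinases and inhibitors 17 were higher and 5 lower (median 1.20). Timp1, their secreted inhibitor, was at 10.1, 9.69 and 8.44 FPKM against 170.0, 180.3 and 171 (log2 4.09, SE 0.0778). Mmp7 had no counts in Sham and was at least 67.5-fold higher. Lox, Itga4 and Mmp7 averaged below 1 FPKM in Sham, so their direction was largely fixed by the minimum.

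Fibroblasts of the meninges are a source of scar cells, and 18 of 21 of their genes were higher (median 2.44). Serping1, the C1 inhibitor, was at 11.3, 11.2 and 11.3 FPKM in Sham and 209, 218 and 200.3 in T_Spinal (log2 4.10, SE 0.0433). Foxd1 and Slc6a13 rose by 3.33 and 3.11. Foxd1 averaged below 1 FPKM in Sham, so its direction was largely fixed by the minimum. The summed level of the meninges genes was 2171 to 2213 FPKM in Sham and 4031 to 4168 in T_Spinal, most of it from genes other tissues also express. How far the share of meninges in the samples bears on the scar genes was not tested. Pericyte genes shifted little: 12 of 16 were higher, with a median of 0.38, and Notch3 was lower (-0.35, not called with total-count scaling or without T_Spinal replicate 3). Anpep, which macrophages also carry, led them with 5.001, followed by Pdgfrb (1.32), Cald1 (1.18) and Des (1.00).

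Vessel genes split. Of 21 genes of endothelium and barrier 12 were higher and 8 lower (median 0.18). Icam1, the leukocyte adhesion molecule, rose by 2.55, Cdh5 (VE-cadherin) by 1.85 and Eng by 1.62 on the log2 scale. The lipid transporter Mfsd2a, a feature of the blood-brain barrier, was at 22.0, 22.0 and 23.4 FPKM in Sham and 9.39, 8.53 and 8.92 in T_Spinal (log2 -1.44, SE 0.0625), and the barrier genes Abcg2 (-1.21), Tfrc (-1.12) and Slc2a1 (-0.51) were lower as well. Of the globin genes of red blood cells, Hbb (-1.10), Hba-a2 (-1.03), Hba-a1 (-0.98) and Hbb-bs (-0.87) were lower, and Hba-a3 was not called (0.10, adjusted p = 0.573). Of the 8 red blood cell genes 5 were lower and Bpgm was higher (0.35). Their summed level was 1482 to 1560 FPKM in Sham and 857 to 897 in T_Spinal. Globin copies are near identical, so their split is uncertain.

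Schwann cells myelinate the nerve roots beside the cord. Of 21 of their genes 12 were lower, 5 were higher and 4 were not called (median -0.28). Prx, a scaffold protein of peripheral myelin, was at 23.5, 23.4 and 21.9 FPKM in Sham against 13.0, 13.3 and 13.2 (log2 -0.91, SE 0.0418). L1cam, an adhesion molecule that neurons share, fell by 1.91, and Shh by 1.26. Ngfr, the low-affinity neurotrophin receptor of denervated Schwann cells, rose from 2.61, 2.08 and 2.39 to 18.4, 19.6 and 19.2 (log2 2.90, SE 0.0947). The other higher members were Mpzl2 (1.08), Egr2 (0.84), Dhh (0.58) and Scn7a (0.44). How much nerve root the samples held, and its part in these values, was not tested.

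Of 16 ependymal cilia genes 6 were higher, 2 lower and 8 not called (median 0.21), with Dnah11 (1.34), Rsph1 (1.04) and Cfap45 (1.02) in the lead. Few genes marked tissues outside the cord. Of 5 tested skeletal muscle genes 1 was higher (Tnnt3, 2.33) and 2 were lower (Tnnc2, -2.41, and Acta1, -1.95), with a summed level of 21.8 to 27.4 FPKM in Sham and 9.70 to 11.3 in T_Spinal. Of 6 adipose genes 4 were higher, among them Fabp4, Cfd and Cidea (1.86), and Thrsp (-1.96) and Lipe (-0.40) were lower. Of 6 bone and cartilage genes Acp5 (4.23), Runx2 (2.50) and Alpl (0.50) were higher and 3 were lower, led by Acan and Sp7 (-1.65). The sensory neuron transcription factor Drgx fell by 2.39 and Mrgprx3 rose by 2.66. Dnah11, Tnnt3, Fabp4, Cfd, Acp5, Runx2 and Mrgprx3 averaged below 1 FPKM in Sham, and Acta1, Acan and Drgx did in T_Spinal. The directions of these genes were therefore largely fixed by the minimum.

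Genes tied to axon growth split. Of 23 regeneration-associated genes 11 were higher and 9 lower (median 0.07). The highest were Plaur (6.19), Socs3 (3.71), Tubb6 (2.72) and Hspb1 (2.49), which cells other than neurons also express. Plaur averaged below 1 FPKM in Sham, so its direction was largely fixed by the minimum. Gap43, the growth cone protein, did not pass the test, at 62.9, 61.5 and 61.5 FPKM in Sham and 64.8, 67.5 and 67.4 in T_Spinal (log2 -0.01, SE 0.0347, adjusted p = 0.805). Its sign depends on the scaling: it was 0.10 with total-count scaling. Stmn2 (-2.11) and Tubb3 (-1.74), which mark neurons, were lower. Of 22 neurotrophic factors and receptors 12 were higher and 9 lower (median 0.16). Ngfr, Igf1 (2.76) and Igf2 (2.24) led the rises, and Fgf9 the falls (-2.996, SE 0.162), with Fgf1 at -1.22 and Vegfa at -1.02. Igf1, a trophic factor of microglia and macrophages, was at 6.06, 5.44 and 5.63 FPKM against 42.8, 42.8 and 40.1 (SE 0.0668).

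The PI3K-AKT core pathway showed no common direction: of 54 genes 19 were higher, 22 were lower and 13 were not called, with a median of 0.06, and the median was 0 to 2 decimals without Sham replicate 1. The largest rises were in genes mostly expressed by leukocytes. They were Pik3r5 (3.60) and Pik3cg (3.19), the adaptor and catalytic subunit of PI3K gamma, the adaptor Pik3ap1 (2.76) and the phosphatase Inpp5d (2.45). Pik3cg was at 1.31, 1.66 and 1.49 FPKM in Sham and 14.0, 14.7 and 15.5 in T_Spinal. Pik3r5 averaged below 1 FPKM in Sham, so its direction was largely fixed by the minimum. Across the list 11 members were higher and 1 lower by at least 2-fold. Akt1, a kinase at the centre of the pathway, was at 55.6, 54.8 and 56.0 against 74.0, 74.4 and 73.7 (log2 0.30, SE 0.0280, adjusted p = 2.026e-05). Mtor fell by 0.38 (SE 0.0427), from 11.4, 11.9 and 12.8 to 9.92, 10.04 and 9.95. Pik3ca, the alpha catalytic subunit, was at -0.21 (SE 0.0493, adjusted p = 0.00523), and with total-count scaling at -0.10 (adjusted p = 0.111). In the KEGG PI3K-Akt pathway as assigned in the deposited table, 129 of 263 tested genes were higher and 94 lower (median 0.19).

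Of 30 apoptosis genes 22 were higher and 4 lower (median 0.87). Bcl2a1, a survival factor of leukocytes, rose by 5.05 on the log2 scale, from 1.97, 2.13 and 2.20 FPKM to 74.6, 71.4 and 80.3. Casp12, Birc5 and Casp8 rose by 2.49, 2.27 and 2.25. Casp12 averaged below 1 FPKM in Sham, which largely fixed its direction. Bax, which opens mitochondria, was at 16.2, 14.7 and 14.7 FPKM in Sham against 26.0, 29.6 and 29.3 (log2 0.78, SE 0.0809). Bcl2, its survival counterpart, did not pass (log2 0.31, SE 0.270, adjusted p = 0.34). The lower members were Bcl2l2 (-1.02), Cycs (-0.81), Xiap (-0.45) and Bcl2l1 (-0.17). Of 33 cell division genes 31 were higher (median 1.56), led by Aurkb (4.22), Top2a (3.38), Ccna2 (3.01) and Cdk1 (2.87), and Ccne1 and Ccne2 were lower (-0.57, not called under several alternatives, and -0.87). Mki67, the proliferation marker, was at 0.824, 0.721 and 0.903 FPKM in Sham and 5.03, 4.997 and 4.56 in T_Spinal (log2 2.46, SE 0.0983). Aurkb, Top2a, Ccna2, Cdk1 and Mki67 averaged below 1 FPKM in Sham and reached the minimum only through T_Spinal. Their being higher was therefore largely fixed by the minimum. Without a minimum, the 2 cell division genes below it were called higher as well. Among 22 immediate early genes 11 were higher and 6 lower (median 0.42). Myc, Atf3 and Ier3 rose by 2.52, 2.18 and 1.76, and Arc, which neurons induce on activity, fell by 1.92. Arc averaged below 1 FPKM in T_Spinal, which largely fixed its direction.

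Transcripts of the respiratory chain mostly fell, while those of ribosomal proteins rose. All 13 mitochondrially encoded genes were lower (median -0.94). Mt-nd2 was at 8148, 7251 and 6756 FPKM in Sham and 3359, 3662 and 3420.0 in T_Spinal (log2 -1.20, SE 0.0728), and Mt-cyb, Mt-co3 and Mt-atp6 had log2 fold changes of -1.11, -0.98 and -0.97. Of 37 nuclear-encoded respiratory chain genes 29 were lower, none by 2-fold, and only Sdhb was higher (median -0.41). Of 28 glycolysis and hypoxia genes 19 were lower and 9 higher (median -0.43). Hk3, the hexokinase of leukocytes, rose by 7.25 and Hk2 by 2.26. With Hk3 below 1 FPKM on average in Sham, its direction was largely fixed by the minimum. The neuronal enolase Eno2 and glucose transporter Slc2a3 fell by 1.96 and 1.92. Of 52 ribosomal protein genes 51 were higher (median 1.01), and Rpl38 was not called (0.82, adjusted p = 0.192). Rplp0 was at 283, 285 and 297 FPKM against 913, 895 and 889 (log2 1.52, SE 0.0318). Ribosomal protein genes have many near-identical pseudogenes, which makes their counts uncertain. Of 31 stress and unfolded protein genes 16 were higher and 11 lower (median 0.19), with Hspb1 (2.49) and Sdf2l1 (1.28) above and Hsph1 (-1.54) and Chac1 (-1.03) below Sham.

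To see where the decoction group's difference from Sham differed from that of injured rats given water, T_Spinal was tested against C_Spinal on the same genes in a fit of all 9 libraries. Of the 14715 genes 3006 were higher (20.4%) and 2679 lower in T_Spinal (18.2%). The median absolute log2 difference was 0.21. The neuronal lists lay nearer to Sham in T_Spinal. For inhibitory transmission the median over Sham was -2.25 in T_Spinal and -3.22 in C_Spinal, and 22 of 24 genes were higher in T_Spinal than in C_Spinal. The same medians were -1.90 and -2.57 for glutamate receptors (25 of 30 higher), -2.41 and -3.28 for vesicle release (24 of 26 higher) and -2.20 and -3.14 for cholinergic genes (8 of 12 higher). Snap25 was higher than in C_Spinal by 1.01 (SE 0.0455, adjusted p = 2.596e-07), Slc6a5 by 1.98 and Kcnc1 by 1.72 on the log2 scale. Neurofilament genes differed less, by 0.42 for Nefl, 0.14 for Nefm and 0.10 for Nefh. No gene of the 4 lists named first was lower than in C_Spinal. Of the neuronal cytoskeleton genes 16 of 20 were higher and 0 lower. Of the channels 17 of 29 were higher and Scn4b was lower, and of the neuropeptides and receptors 11 of 18 were higher, with Oprk1 and Pnoc lower. Cholesterol synthesis had nearly the same median in both groups, -2.65 and -2.78, with 5 genes higher and 2 lower in T_Spinal.

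Scar and fibroblast genes lay nearer to Sham in T_Spinal as well. Of 37 scar matrix genes 33 were lower than in C_Spinal and 2 higher, with medians over Sham of 2.09 and 3.16. Col1a1 averaged 156 FPKM in T_Spinal and 318 in C_Spinal (log2 difference -1.07), Col3a1 212 and 509 (-1.31), and Thbs1, an activator of TGF-beta, 7.11 and 50.8 (-2.88, SE 0.0874). The medians were 2.44 and 3.25 for meninges (18 of 21 lower), 1.21 and 1.70 for basement membrane (17 of 27 lower) and 2.25 and 2.97 for reactive astrocyte genes (18 of 31 lower, 4 higher). For Schwann cell genes they lay on either side of Sham, at -0.28 in T_Spinal and 1.05 in C_Spinal, and 18 of 21 genes were lower in T_Spinal.

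Some lists lay further from Sham in T_Spinal. Of 22 microglial genes 17 were higher than in C_Spinal and 2 lower, with medians over Sham of 1.58 and 0.97. Cx3cr1 averaged 97.8 FPKM in T_Spinal and 34.2 in C_Spinal (log2 difference 1.48), Csf1r 236 and 105 (1.13), and P2ry12 50.0 and 17.9 (1.44). The Sham mean of P2ry12 was 20.9. Mitochondrially encoded genes had medians of -0.94 and -0.61, with 12 of 13 lower than in C_Spinal. The core PI3K-AKT genes split, with 20 of 54 higher and 11 lower. Other immune lists had members on both sides of C_Spinal. Of 25 complement genes 8 were higher and 8 lower, with medians over Sham of 2.90 and 3.02, and of 27 genes of lipid-laden phagocytes 10 were higher and 9 lower. Antigen presentation had 7 of 24 higher and 4 lower. Within these lists C3 averaged 83.5 FPKM in T_Spinal and 32.4 in C_Spinal (log2 difference 1.32, adjusted p = 4.555e-09), Spp1 1481 and 740 (0.96) and Cd74 134 and 66.5 (0.97). Of the 6 lymphocyte genes 1 was higher, Cd4, at 77.0 and 21.4 (1.80), and 1 lower, Il2rg, at 2.28 and 3.49 (-0.66).

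The largest rises against C_Spinal under the same rule were Ifit1 (log2 6.70, SE 0.256), Elk4 (2.96), Fcrl2 (2.86), Cenpp (2.46) and Gm22877 (1.84). Of the 44 interferon response genes, Ifit1 among them, 6 were higher than in C_Spinal and 20 lower, with medians over Sham of 2.79 and 2.96. Elk4, an ETS transcription factor, was at 9.43, 7.69 and 10.9 FPKM in T_Spinal, at 5.32, 7.66 and 7.42 in Sham and at 1.17 on average in C_Spinal. Its T_Spinal libraries lay above Sham without a call (log2 0.35, adjusted p = 0.0797), but it was called with total-count scaling (0.46, adjusted p = 0.0315), with limma on log2(FPKM + 1) (0.41, adjusted p = 0.0494) and without T_Spinal replicate 2 (0.47, adjusted p = 0.0277). Cenpp, a kinetochore gene, averaged 5.92 in T_Spinal, 0.830 in Sham and 1.04 in C_Spinal. The largest falls were Mmp7 (-3.10), Thbs1, Shisa3 (-2.83), Clec11a (-2.79) and Krt19 (-2.67). Shisa3 averaged 3.27 FPKM in T_Spinal, 0.352 in Sham and 22.6 in C_Spinal. Clec11a, a growth factor of bone and blood cells, averaged 1.97, 1.21 and 13.2 in the same order, and its rise over Sham was no longer called without Sham replicate 3 (adjusted p = 0.0568) or T_Spinal replicate 1 (adjusted p = 0.0691). Both comparisons use the same T_Spinal libraries, so they are not independent.

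**Figure D4:**
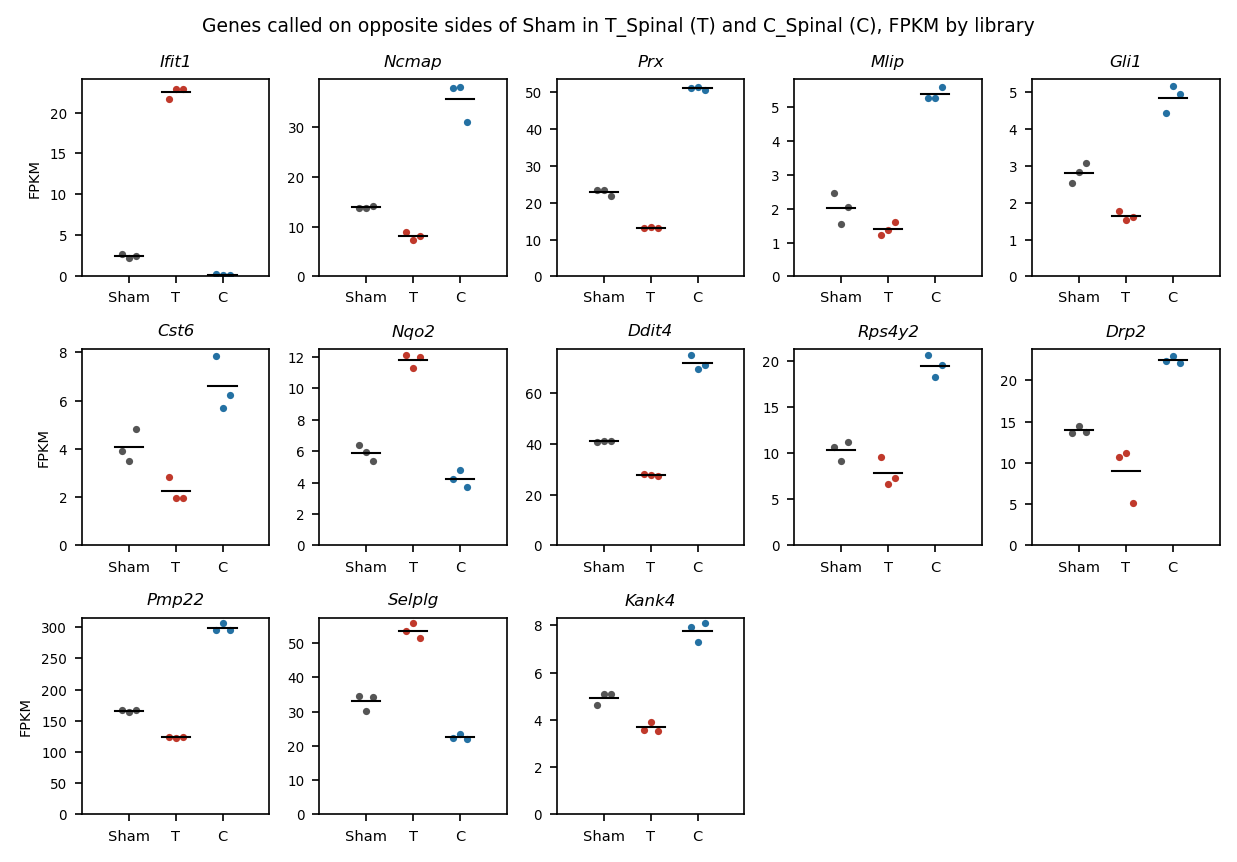
FPKM by library of 13 genes called on opposite sides of Sham in T_Spinal (T) and C_Spinal (C), by at least 0.5 on the log2 scale in each; bars are group means. Ifit1, Nqo2 and Selplg lie above Sham in T_Spinal and below it in C_Spinal, and the other 10 the other way round.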

How the data were processed

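Poly(A) RNA of rat spinal cord was sequenced as stranded paired-end libraries, 9 in 3 groups of 3, per the labels' protocols. HISAT and StringTie are named without versions in the submitters' processing notes. For the genome build, annotation and strand setting, nothing is given in the sources used here. Whole-number counts per gene stand in the deposited table beside the FPKM computed by the authors, per the file headers, with 0.0001 listed for a count of 0, and gene positions and KEGG assignments.

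The test took genes averaging 1 FPKM or more across the 3 T_Spinal and 3 Sham libraries (14715 genes, 99.7% of their counts). In R 4.3.3, edgeR 4.0.16 scaled the counts (trimmed mean of M values) and fitted a quasi-likelihood model without covariates. A gene was called where its two-sided p, adjusted by Benjamini-Hochberg over all tested genes, was below 0.05. T_Spinal against C_Spinal, and C_Spinal over Sham as a description, came from a fit of all 9 libraries. SE is that of the log2 fold change. The edgeR fit was also run on simulated counts with few changed genes, which does not test calling or scaling where most genes are called. Replicates differed by more than counting noise. A fold against a group without counts is a lower bound against 3 counts per library, and list medians keep the same genes. Counting intervals and floors cover counting error only. limma 3.58.1 and DESeq2 1.42.0 served as alternatives, and figures were drawn with matplotlib 3.10.9.

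Genes named are a fixed set, the 8 largest rises and falls, up to 4 leading called members of each of 50 lists, the 5 largest rises and falls against C_Spinal, and uncalled members where 5 or fewer. Others were chosen after their values were seen. The comparison, members and lists were chosen with earlier results of these data known. Promoter windows are RefSeq's (GRCr8), matched by symbol. Results on some genes are not reported here.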

Additional observations from a re-analysis of the deposited data

Results flagged for a closer look

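Of the genes called on opposite sides of Sham in T_Spinal and C_Spinal, by at least 0.5 on the log2 scale in each and with a called difference between the injured groups, 13 are given here. The log2 difference of T_Spinal over C_Spinal was 6.70 for Ifit1, 1.43 for Nqo2 and 1.21 for Selplg, which were above Sham in T_Spinal and below it in C_Spinal. Of the 44 interferon response genes, Ifit1 among them, 6 were higher and 20 lower than in C_Spinal. Ifit1 averaged 22.5 FPKM in T_Spinal, 2.51 in Sham and 0.206 in C_Spinal. Nqo2, a quinone reductase, averaged 11.8, 5.89 and 4.23, and Selplg, the leukocyte ligand of selectins, 53.5, 33.1 and 22.5 in the same order.

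The other 10 were below Sham in T_Spinal and above it in C_Spinal. Among them were 4 genes of peripheral myelin: Ncmap (-2.17), Prx (-2.00), Drp2 (-1.36) and Pmp22 (-1.32). Pmp22 averaged 123 FPKM in T_Spinal, 166 in Sham and 299 in C_Spinal. The rest were Mlip (-1.98), Gli1 (-1.61), a target of hedgehog signalling, Cst6 (-1.58), Ddit4 (-1.42), an inhibitor of mTOR, Rps4y2 (-1.36) and Kank4 (-1.12). The fall below Sham was no longer called for Drp2 without any 1 of the Sham libraries (adjusted p = 0.0601, 0.068 and 0.059), and its T_Spinal libraries stood at 10.7, 11.2 and 5.10 FPKM. For Mlip it was not called without Sham replicate 1 or 3 (edgeR adjusted p = 0.0808 and 0.0528) or T_Spinal replicate 1 or 2 (0.076 and 0.0623). For Rps4y2 it was not called without Sham replicate 1 or 3 (edgeR adjusted p = 0.0562 and 0.0629) or T_Spinal replicate 2 or 3 (0.0611 and 0.0622). No explanation of these opposite directions was tested.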

How the results depend on the processing

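All alternatives kept both counts of called genes within 1.5 times, apart from the fold requirement: at least 2-fold left 2179 higher and 1907 lower genes. Leaving out each replicate in turn gave 4985 to 5088 higher and 4827 to 4972 lower genes in T_Spinal against Sham, and 2529 to 2716 higher and 2164 to 2343 lower against C_Spinal. No call changed direction under the alternatives run. Total-count scaling moved the median of all genes from 0.01 to 0.12 and the share of calls that were higher from 50.6% to 58.5%. limma moved the median to 0.11 on log2(FPKM + 1) and 0.12 on log2(FPKM + 0.1), with 58.5% higher in both. Gap43 turned from -0.01 to 0.10 under these 3 settings (adjusted p 0.0256 to 0.0275). Of 227 named genes, 8 lost or gained a call under some setting. The cause was not tested.

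The replicate numbers are shared by the groups, but same-numbered libraries deviated together only weakly (correlations 0.106, 0.059 and 0.052). Correlations of differently numbered libraries ran from -0.119 to 0.056. T_Spinal replicate 3 correlated with Sham replicate 2 at 0.056 and with Sham replicate 3 at 0.052. Values this weak cannot tell whether same-numbered libraries share more than a number. With a replicate block, 5055 genes were higher and 4945 lower than in Sham, and 2774 higher and 2406 lower than in C_Spinal. Aqp4, whose replicate 3 is high in both groups, was called lower with the block (-0.17, adjusted p = 0.0365) and not without it (-0.20, adjusted p = 0.841).

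Depth limits genes near the FPKM minimum and folds against Sham levels of few counts.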

Other observations

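Of the 19 genes without counts in Sham that were called higher, some stand outside the lists above. RT1-M2, an MHC-like gene, and Ly49s7, a lectin-like receptor of natural killer cells, were at least 89.8-fold and 109.2-fold higher, and Dppa4 and Adig at least 46.3-fold and 12.6-fold. These were chosen after their values were seen, and the first 2 belong to families of near-identical genes. Wdr54 had no counts in T_Spinal and was not called (edgeR adjusted p = 0.0515). Its counts in Sham were all in replicate 2, at 6.78 FPKM.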
